A study of Mus musculus with 9 samples.

Results

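The miRNAs described here are those listed in the count table under a name that ends in a locus number, such as miR-24-2 or let-7a-1, each set beside the entry of the same name without that number, such as miR-24 or let-7a. They were chosen by the form of the name, with some names of that form left out. Of the 1164 entries of the table, 54 were locus-numbered, which left out the numbered entries of miR-365, miR-194, miR-125b and the miR-297, miR-466, miR-467 and miR-669 families. The 54 entries belong to 28 base names, and 53 of them have a base entry, the exception being miR-7094b-2. There are 27 base entries.

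The libraries were made from small RNA of small extracellular vesicles (smEVs), pelleted by differential centrifugation from the medium of mouse kidney medullary (KM) cells that had been kept without serum for 24 h. There were 3 lines. Bbs4-/- cells lack a subunit of the BBSome, the complex that moves cargo in cilia. Bbs6-/- cells lack a protein of the chaperonin complex on which BBSome assembly depends, and WT cells were the control. Each genotype was represented by 1 immortalised cell line, so genotype and line cannot be told apart. Each line gave 3 libraries from separate smEV pellets, 9 in all, and p-values here measure the spread between such pellets. Libraries are named by the numbers in the count table, where Bbs4-/- has 1, 2 and 3, Bbs6-/- has 2, 3 and 4, and WT has 1, 3 and 4.

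A miRNA is cut from a hairpin precursor as a duplex of 2 strands, called 5p and 3p after the arm of the hairpin they come from. Usually one strand is loaded into an Argonaute protein and kept, and its partner, the passenger strand, is mostly degraded. Where several genes encode the same miRNA, the kept strand is often identical between the loci, while the passenger strand has drifted and can be given a locus number. Passenger strands can therefore tell which of several genes was active.

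The names in the table carry no arm. Matched by name to the RefSeq miRNA annotation of GRCm38.p6, 50 of the 54 numbered entries had a mature product of the same name with an arm added, 32 of them 3p and 18 of them 5p. The base name had a product in 48 of these cases, and in 47 of the 48 it lay on the other arm. All 46 numbered hairpins of the annotation with a mature product of the gene's own name and number had an entry of that name. Of the 38 numbered hairpins without such a product, 3 had an entry of the gene's name (miR-219a-2, miR-129-1 and miR-3074-1). Some of the 38 have a product numbered under another base name, and it has an entry. Mir7-1, Mir92-1 and Mir450-1, for example, give miR-7a-1, miR-92a-1 and miR-450a-1. A numbered entry is therefore read here as the locus-specific strand and its base entry as the strand of the opposite arm that the loci share. This reading rests on names, since the table holds no reads.

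The sequences of the numbered strands with at least 90 counts and of 3 strands from their partner loci show where the loci differ. They are RefSeq mature products written 5′ to 3′, and capitals mark the seed, bases 2 to 8, which pairs with target mRNAs.
let-7a-1: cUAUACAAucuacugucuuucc
let-7c-2: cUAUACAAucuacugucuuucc
miR-196a-1: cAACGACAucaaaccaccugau
miR-24-2: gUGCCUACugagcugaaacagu
miR-24-1: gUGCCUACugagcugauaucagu
miR-29b-1: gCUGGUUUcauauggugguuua
miR-29b-2: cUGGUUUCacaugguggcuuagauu
miR-30c-2: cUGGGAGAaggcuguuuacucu
miR-30c-1: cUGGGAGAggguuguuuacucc

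The base entries of the same names stand for the shared strands, shown for comparison with capitals again at the seed.
let-7a: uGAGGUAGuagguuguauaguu
let-7c: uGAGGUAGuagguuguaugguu
miR-196a: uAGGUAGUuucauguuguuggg
miR-24: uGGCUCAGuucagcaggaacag
miR-29b: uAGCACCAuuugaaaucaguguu
miR-30c: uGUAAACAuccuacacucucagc

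None of the 9 numbered strands printed has the seed of its base strand, and among all matched entries only miR-3070-2 did. Between loci, 7 of 23 pairs of numbered strands with the same base name shared a seed. The strands of miR-24-1 and miR-24-2 agree over their first 16 bases and lie 2 edits apart, and those of miR-30c-1 and miR-30c-2 agree over 8 bases and lie 3 edits apart. By the paper's size selection and adapter trimming, reads from the same start should reach past those first 16 bases, to where the miR-24 strands differ. Which locus a read was given to could not be checked, since the count table holds no reads. The strands of let-7a-1 and let-7c-2 are identical, as are the counts of both entries in each of the 9 libraries. These reads may come from either gene. let-7f-1 has the same seed as both.

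The strands of the duplex can be seen on the hairpin. The precursor Mir24-2 lies at chr8:84208815-84208921 on the plus strand of GRCm38.p6, 143 bp from the start of Mir27a, with Mir23a further off in the same cluster. Capitals mark the numbered 5p strand first and the shared 3p strand after it.
Mir24-2: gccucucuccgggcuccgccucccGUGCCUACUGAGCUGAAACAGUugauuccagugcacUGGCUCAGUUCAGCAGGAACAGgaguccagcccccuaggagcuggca

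Mir29b-1 lies at chr6:31063023-31063093 on the minus strand, 363 bp from the start of Mir29a. Its capitals mark the strands in the same order, and this is the hairpin whose numbered strand came closest in level to the shared strand.
Mir29b-1: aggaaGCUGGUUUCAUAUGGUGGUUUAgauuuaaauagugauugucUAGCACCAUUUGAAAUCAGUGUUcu

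The total miRNA count was 64118 to 130905 in the WT libraries and 176935 to 457163 in the mutants, with no overlap in depth between WT and the mutants. A count of 0 in 1 library allowed up to 6.98 CPM (counts scaled to library size with TMM factors) in the deepest and 36.5 CPM in the shallowest, taking 3 counts as the limit for counting error alone. Of the epithelial markers, miR-200a, miR-200b and miR-429 were counted in every library, while miR-200c had 1 or 2 counts and miR-141 none in each WT library. Bbs6-/- replicate 2 had 32 counts of miR-200c against 1069 and 1542 in the other Bbs6-/- libraries. Of the kidney markers, miR-30a (2249 to 19979), miR-30e (433 to 2337) and miR-192 (3 to 51) were counted in every library. miR-194 had 0 to 61 counts per library and miR-215 had 0 to 4. The markers of other cell types summed to 7 to 61 counts per library for mesenchyme, 127 to 1022 for muscle, 10 to 26 for blood, 2 to 163 for neurons and 0 to 22 for liver. Counted in every library were miR-143 of the mesenchymal list (6 to 57), miR-206 of muscle (119 to 1013), miR-486a of blood (5 to 25) and miR-9 of neurons (2 to 163). The mesenchymal miR-145a and miR-214 and the muscle miR-133b were at 0 throughout. The part of these differences in the results below was not tested.

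Locus-numbered strands were rare in smEVs. Together they made up 0.0939% to 0.142% of the miRNA counts of a library, against 21.7% to 28.5% for their base entries. Of the 54 entries, 29 had no count in any library, which over all 9 libraries allowed up to 1.51 CPM. Another 7 had 1 to 8 counts in all, 12 had 9 to 89, and 6 had at least 90. With let-7a-1 and let-7c-2 counted once, the numbered strands had 2398 counts, and 2179 of these (90.9%) belonged to let-7a-1, miR-196a-1, miR-24-2, miR-29b-1 and miR-30c-2. These, with let-7c-2, were also the only numbered entries with a count in every library.

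The most abundant numbered strand was miR-24-2, the 5p strand of the hairpin that shares a transcript with miR-23a and miR-27a. It had 86, 107 and 231 counts in the Bbs4-/- libraries, 123, 124 and 144 in Bbs6-/-, and 37, 54 and 81 in WT. Scaled for depth, this was 520 ± 35.6 CPM in Bbs4-/-, 504 ± 148 CPM in Bbs6-/- and 485 ± 37.1 CPM in WT (SD, n = 3 each). The scaled levels of the lines overlapped. Its base entry miR-24 had 1708, 2297 and 4502 counts in Bbs4-/-, 2999, 3088 and 3988 in Bbs6-/-, and 1066, 1253 and 2509 in WT, in all 23.7 times as many.

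miR-30c-2 is the passenger strand of a hairpin in the miR-30 family, which is abundant in kidney epithelium, and its gene, at chr1:23291701-23291784 on the plus strand in an exon of the long non-coding RNA Gm27028, starts 19432 bp from that of Mir30a. It had 53, 58 and 84 counts in Bbs4-/-, 47, 57 and 53 in Bbs6-/-, and 18, 36 and 33 in WT. The scaled levels were 263 ± 69.8, 201 ± 53.4 and 251 ± 60.4 CPM (SD, n = 3 each) in the same order, and the lines overlapped. miR-30c itself had 1719, 2319 and 5227 counts in Bbs4-/-, 1156, 1744 and 2293 in Bbs6-/-, and 594, 1232 and 1066 in WT, in all 39.5 times as many.

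The let-7 family restrains growth and keeps cells differentiated, and its 5p strands were among the most abundant base entries. Mirlet7a-1 lies at chr13:48538179-48538272 on the minus strand, 350 bp from the start of Mirlet7f-1, and Mirlet7c-2 at chr15:85706603-85706697 on the plus strand in an exon of the long non-coding RNA Lncppara, 716 bp from the start of Mirlet7b. The shared 3p strand of let-7a-1 and let-7c-2 had 28, 31 and 66 counts in Bbs4-/-, 55, 80 and 128 in Bbs6-/-, and 12, 26 and 10 in WT. Its level was 157 ± 19.2 CPM in Bbs4-/-, 314 ± 47.6 CPM in Bbs6-/- and 147 ± 83.5 CPM in WT (SD, n = 3 each). All Bbs6-/- libraries lay above all others, while Bbs4-/- lay within the range of WT. The let-7a entry had 9508, 9077 and 24368 counts in Bbs4-/-, 7965, 20406 and 27069 in Bbs6-/-, and 2537, 4019 and 4725 in WT. This was 252 times the 3p count, and let-7c had 269 times as many.

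miR-196a-1 comes from a hairpin among the Hoxb genes, at chr11:96265164-96265265 on the plus strand, and its shared strand, miR-196a, targets Hox mRNAs. The numbered strand had 9, 28 and 47 counts in Bbs4-/-, 9, 29 and 28 in Bbs6-/-, and 8, 6 and 4 in WT. After scaling, the levels were 97.2 ± 35.8, 76.2 ± 25.1 and 58.8 ± 36.0 CPM (SD, n = 3 each), and each line overlapped the others. miR-196a had 769, 712 and 1908 counts in Bbs4-/-, 632, 1142 and 1417 in Bbs6-/-, and 253, 261 and 482 in WT, 45.1 times as many in all.

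miR-29b-1 stood closest to its base entry. miR-29b represses mRNAs of collagens and other matrix proteins. The 5p strand had 21, 12 and 60 counts in Bbs4-/-, 10, 20 and 14 in Bbs6-/-, and 4, 2 and 6 in WT, and miR-29b had 9, 18 and 44 in Bbs4-/-, 18, 51 and 60 in Bbs6-/-, and 5, 5 and 14 in WT. Over all libraries the base entry had 1.5 times the count of the numbered strand, and in Bbs4-/- replicates 1 and 3 the numbered strand had the higher count. The scaled levels of miR-29b-1 were 109 ± 47.7 CPM in Bbs4-/-, 54.4 ± 14.1 CPM in Bbs6-/- and 35.1 ± 15.7 CPM in WT (SD, n = 3 each). Bbs4-/- replicate 2, at 53.7 CPM, fell among the Bbs6-/- libraries, but all 3 Bbs4-/- values lay above the WT ones.

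Of the 18 numbered entries with at least 9 counts, 16 were below their base entry in every library. The exceptions were miR-29b-1, which was below in 7 of the 9, and miR-219a-1, with 13 counts against 1 count of miR-219a. The ratio was taken in each library as log2 of the numbered count plus 0.5 over the base count plus 0.5, and the median of the pairs' medians was -7.95. At the far end, let-7f had 5291 times the 30 counts of let-7f-1, and miR-26a had 2761 times the 9 counts of miR-26a-2.

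**Figure D1:**
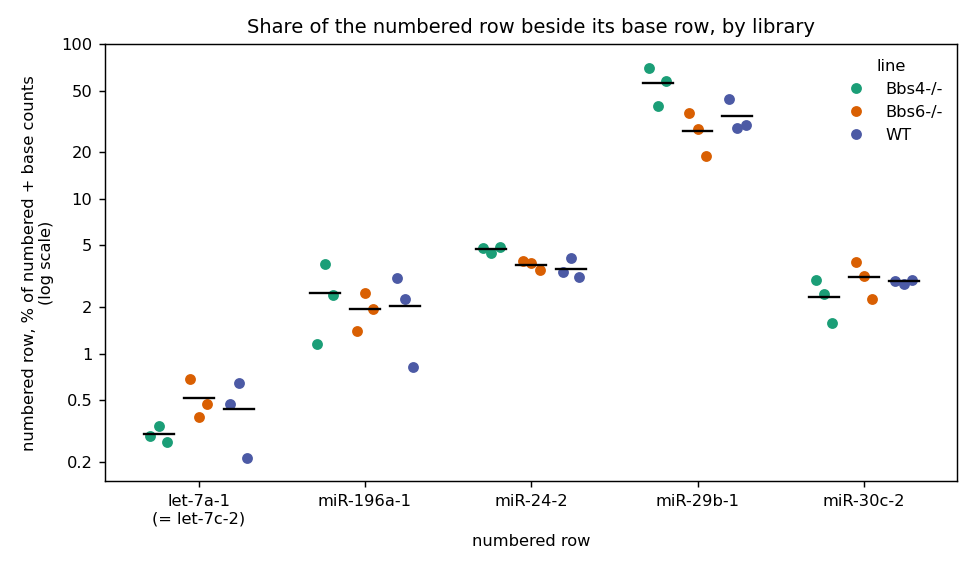
Counts of the numbered entry as a percentage of the numbered and base entries together (y axis, log scale), for the numbered entries with at least 90 counts (x axis). Each point is 1 library, coloured by line, and bars are means of 3 libraries. miR-29b-1 lies between 18.9% and 70.0%, and the others below 5%.

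The entries with 9 to 89 counts were spread over few libraries. miR-218-1 had 28 counts, of which 8 were in WT replicate 1 and 8 in Bbs4-/- replicate 3. miR-26a-2 had its 9 counts in Bbs6-/- replicate 4 alone, and miR-128-1 had 12 of 20 counts in Bbs4-/- replicate 1. let-7f-1, with 2, 7 and 13 counts in Bbs4-/-, 8 in Bbs6-/- replicate 3 and none elsewhere, was one of 7 entries of this class without a count in WT. The others of these were miR-128-1, miR-219a-1, miR-24-1, miR-26a-2, miR-450a-1 and miR-7a-1. Counts of 0 in WT were bounded less tightly than in the mutants because the WT libraries were shallower.

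Numbered counts were found for 21 of the 28 base names. let-7a and let-7c share their strand, so its counts do not tell the locus, and 5 other names had at most 4 counts. Of the remaining 14 names, counts were found for 1 locus only in 10 and for both in 4 (let-7f, miR-181a, miR-24 and miR-30c). Many of these rest on few counts. For miR-24 the locus on chromosome 8 had 987 of 999 counts (98.8%, exact 95% binomial interval 97.9% to 99.4%), and it led in all 9 libraries. For miR-30c the second locus had 439 of 455 counts (96.5%, exact 95% binomial interval 94.4% to 98.0%), and it also led in all 9. miR-29b-2 had 0 counts beside 149 of miR-29b-1, which allows a share of up to 2.01%, and miR-196a-2 had 0 beside 168 of miR-196a-1, which allows up to 1.79%. let-7a-2 and let-7c-1 had 0 beside the 436 counts of the strand that let-7a-1 and let-7c-2 share. This allows each up to 0.688% of that strand's count, which is no share among loci, as the locus of those counts is not known. These bounds cover counting error only, and strands of 2 loci can differ in how well they are kept, so the shares are of strands and not of transcripts.

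**Figure D2:**
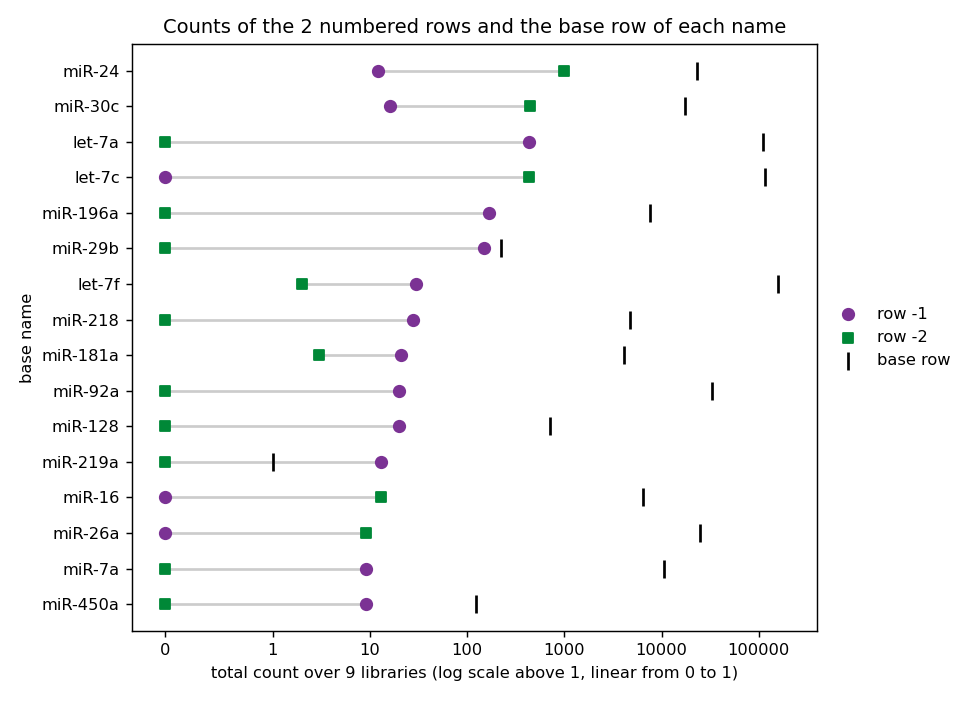
Total counts over the 9 libraries (x axis, log scale above 1) of the first and second numbered entry and of the base entry for each base name with at least 9 counts at a numbered entry (y axis). In each name 1 numbered entry holds most of the numbered counts, and the base entry lies to the right except for miR-219a.

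The miRNAs cut from the same primary transcript as a locus gave a second view of it. For miR-24, the leading locus lies with miR-23a and miR-27a, which had 31178 counts together, against 23428 for miR-23b and miR-27b at the other locus. Taken singly the members went opposite ways, with miR-23a at 24536 and miR-23b at 7729, but miR-27a at 6642 and miR-27b at 15699. For miR-30c, the partner of the leading locus, miR-30a, had 70615 counts and miR-30e at the other locus 10955. For miR-29b, miR-29a had 17527 counts and miR-29c 55. In let-7f, miR-16 and miR-92a, as in these 3, the locus with more numbered counts also had the higher summed partner count. In miR-181a it was the other way, on few counts: miR-181a-1 led miR-181a-2 by 21 to 3, while of their partners miR-181b-1 had 0 and miR-181b-2 had 4. The partners of let-7a-1 and let-7c-2, let-7d and let-7b, had 30916 and 57737 counts, against 784 of miR-100 and 296 of miR-99a beside let-7a-2 and let-7c-1, which were at 0. These are levels of different sequences in the same libraries, and no test was made of the order.

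Changes with genotype were tested with edgeR's quasi-likelihood test on all entries with enough counts, with Benjamini-Hochberg adjustment over them. No numbered strand was called in any comparison, whether with the limits of the study (adjusted p under 0.1 with a log2 change of 2 or more in size) or at any fold. Between Bbs4-/- and WT, 0 of 14 tested numbered entries were called with the fold limit, where 6.17% of all 308 tested entries were, and 0 at any fold, where 15.3% were. Between Bbs6-/- and WT it was 0 of 15, against 4.03% of 298 with the limit and 15.1% without it. In the direct comparison of the mutants it was 0 of 18, against 3.88% and 8.09% of 309. At an unadjusted p under 0.05 there were 3, 2 and 2 numbered entries in edgeR and 0, 2 and 2 in DESeq2. DESeq2 also called none, but it gave an adjusted p to only 10 of 14, 6 of 15 and 7 of 18 numbered entries. The 2 of edgeR, in Bbs6-/- against WT and in the direct comparison, were let-7a-1 and let-7c-2, which is 1 set of counts listed under both names. Of all tested entries, 80 of 308, 66 of 298 and 50 of 309 had such a p in edgeR. Most of the tested numbered entries had few counts, and the errors below set what a change would have needed to be seen.

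The numbered strands with the smallest unadjusted p were the abundant let-7 and miR-29b ones and 2 rare ones. The 3p strand of let-7a-1 and let-7c-2 differed by 1.15 on the log2 scale in Bbs6-/- against WT (standard error 0.47, adjusted p = 0.181, edgeR), 0.00 in Bbs4-/- against WT (standard error 0.48, adjusted p = 1.00, edgeR) and -1.01 between Bbs4-/- and Bbs6-/- (standard error 0.43, adjusted p = 0.260, edgeR). Both comparisons with WT use the same WT libraries. miR-29b-1 had a log2 fold change of 1.52 in Bbs4-/- against WT (standard error 0.65, adjusted p = 0.158, edgeR), 0.64 in Bbs6-/- against WT (standard error 0.74, adjusted p = 0.671, edgeR) and 1.00 between the mutants (standard error 0.58, adjusted p = 0.416, edgeR). let-7f-1 and miR-128-1 had 22 and 18 counts in Bbs4-/- and none in WT, with adjusted p of 0.145 and 0.182 (edgeR). Both passed the count filter through Bbs4-/- alone, so their p-values are no evidence of a rise.

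miR-24-2, miR-30c-2 and miR-196a-1 had smaller differences. Taking Bbs4-/- with WT first, then Bbs6-/- with WT and then the mutants, the log2 fold changes of miR-24-2 were -0.01, 0.06 and 0.05, with standard errors of 0.29, 0.31 and 0.30. Those of miR-30c-2 were -0.05, -0.29 and 0.38, with standard errors of 0.38 in each. For miR-196a-1 they were 0.71, 0.46 and 0.35, with standard errors of 0.62, 0.68 and 0.58, and leaving out single libraries moved the first between 0.33 and 1.34 and the second between 0.00081 and 1.07. The largest of these was 1.15 times its standard error.

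Base entries were called at any fold more often than numbered ones, though never with the fold limit, and the difference between the kinds was not tested. Between Bbs4-/- and WT, 4 of 21 rose, namely let-7a (log2 fold change 0.58), miR-128 (0.91), miR-218 (0.96) and miR-7a, a miRNA of endocrine and neural cells (1.38). Between Bbs6-/- and WT, 6 of 20 rose, namely let-7a (1.01), let-7c (0.87), let-7f (0.66), miR-181a (1.55), miR-26a (0.80) and miR-7a (1.36). These shares stand beside 8.77% and 9.73% of all entries called higher at any fold. In the direct comparison, miR-181a was lower in Bbs4-/- and miR-30c higher, 2 of 21 where 8.09% of all entries were called. Several of these calls were lost when a single library was left out. Those of miR-218 and miR-7a between Bbs4-/- and WT, and of miR-181a in both its comparisons, held when any 1 library was left out. The calls of miR-128 between Bbs4-/- and WT, and of let-7c and let-7f between Bbs6-/- and WT, held in 1 of 6 such fits, and that of miR-26a in 2. let-7a held in 3 of 6 with Bbs4-/- and 4 of 6 with Bbs6-/-, miR-7a with Bbs6-/- in 3 of 6, and miR-30c in 7 of 9.

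Taken over the tested entries, the median log2 fold change was 0.09 for numbered, 0.31 for base and -0.02 for all entries between Bbs4-/- and WT. In Bbs6-/- against WT the medians were 0.64, 0.39 and -0.01, and between the mutants 0.28, 0.01 and 0.04. The numbered medians count the single set of let-7a-1 and let-7c-2 counts under both names. They also include entries with no count in WT, which passed the filter through a mutant alone. In Bbs6-/- against WT these were let-7f-1, miR-24-1, miR-26a-2 and miR-450a-1, with log2 fold changes of 3.95 to 4.17. The medians are therefore no measure of a rise in numbered strands. The miRNAs that share a transcript with a numbered locus had medians of 0.08, 0.14 and -0.11, with 3, 5 and 3 of 22 called at any fold, beside 15.3%, 15.1% and 8.09% of all entries. One of them, miR-99a, passed the fold limit in both comparisons with WT, with log2 fold changes of 3.36 in Bbs4-/- and 4.15 in Bbs6-/- (standard errors 0.83 and 1.19, adjusted p = 0.00733 and 0.0498, edgeR). It had 0, 1 and 4 counts in WT, and in Bbs6-/- it was not called without WT replicate 1 or 3. In Bbs6-/- it had 114 counts in replicate 2, beside 19 and 32 in replicates 3 and 4. Without Bbs6-/- replicate 2, miR-99a was still called, with a log2 fold change of 2.56. Its numbered neighbour let-7c-1 had no count in any library. Numbered entries passed the filter with few counts, and their log2 fold changes ranged from -4.15 to 5.49.

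**Figure D3:**
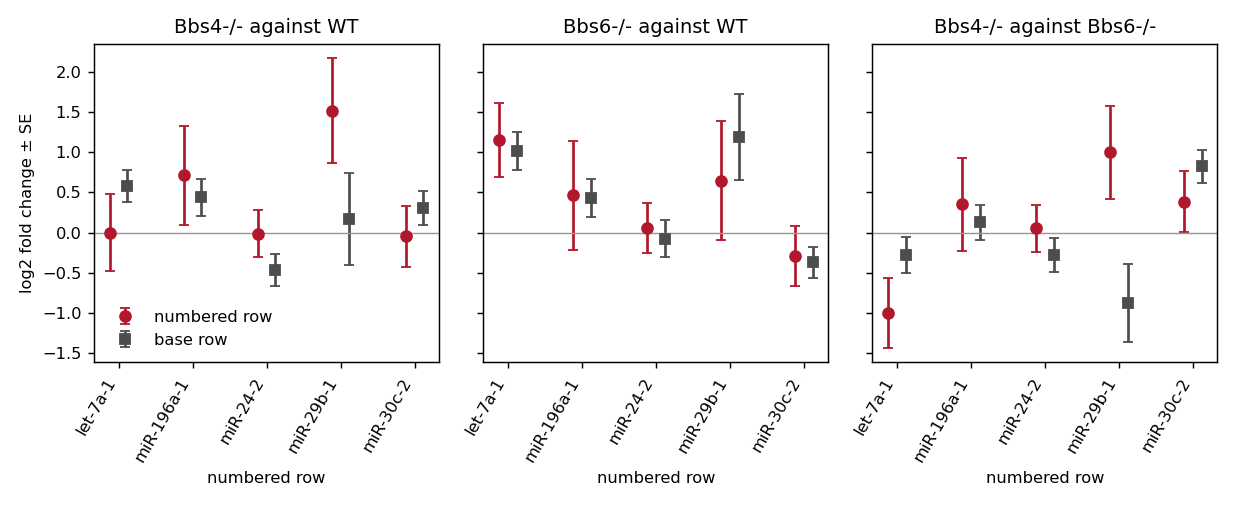
Log2 fold change of the numbered (red circles) and base entry (grey squares) with at least 90 numbered counts, in each of the 3 comparisons, with bars of 1 standard error from edgeR. The largest gap is that of miR-29b in the direct comparison, 1.00 for the numbered and -0.87 for the base entry.

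Whether a numbered strand changed differently from its base strand was asked of their ratio within each library, which needs no scaling between libraries. Depth drops out only where the numbered count is well above 0. In 12 of the 18 pairs the numbered entry had no count in at least 1 library, and there the pseudocount ties the ratio to depth. miR-26a-2, at 0 in both, had a log2 ratio of -10.20 in WT replicate 1 and -13.33 in Bbs4-/- replicate 3. The 6 entries with at least 90 counts had a count in every library. An exact permutation test of the variation among the 3 lines over the 280 partitions of the libraries gave p under 0.05 for 0 of 18 pairs, where the smallest p possible was 0.00357. The p ranged from 0.05 to 0.993.

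The lowest value was that of miR-29b-1 (p = 0.05, exact permutation test over all partitions). Its share of the 2 strands was 70.0%, 40.0% and 57.7% in Bbs4-/- replicates 1, 2 and 3, 35.7%, 28.2% and 18.9% in Bbs6-/-, and 44.4%, 28.6% and 30.0% in WT. All Bbs4-/- shares were above all Bbs6-/- shares, and Bbs4-/- overlapped WT. On the log2 scale the mean ratio was 0.35 ± 0.88 in Bbs4-/-, -1.40 ± 0.63 in Bbs6-/- and -0.86 ± 0.50 in WT (SD, n = 3 each). In the direct comparison the strands pointed in opposite directions, with log2 fold changes of 1.00 for miR-29b-1 and -0.87 for miR-29b (standard error 0.49), neither called. WT counts of both strands were 14 or fewer. Leaving out single libraries gave p from 0.0179 without Bbs4-/- replicate 2 to 0.136 without Bbs4-/- replicate 1, and thinned counts gave a median p of 0.0911 (exact permutation tests).

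Next was miR-24-2 (p = 0.0536, exact permutation test over all partitions). Its share was 4.79%, 4.45% and 4.88% in Bbs4-/-, 3.94%, 3.86% and 3.49% in Bbs6-/-, and 3.35%, 4.13% and 3.13% in WT. Every Bbs4-/- library was above every other library, and Bbs6-/- and WT overlapped. The mean log2 ratio was -4.33 ± 0.07 in Bbs4-/-, -4.67 ± 0.10 in Bbs6-/- and -4.77 ± 0.22 in WT (SD, n = 3 each). WT replicate 3, at 4.13%, was the nearest to Bbs4-/-. Leaving out single libraries gave p from 0.00714 without WT replicate 3 to 0.1 without Bbs4-/- replicate 3, and thinned counts gave a median p of 0.132 (exact permutation tests). The log2 fold change of miR-24 between Bbs4-/- and WT was -0.47 (standard error 0.20, adjusted p = 0.166, edgeR), against -0.01 for miR-24-2.

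**Figure D4:**
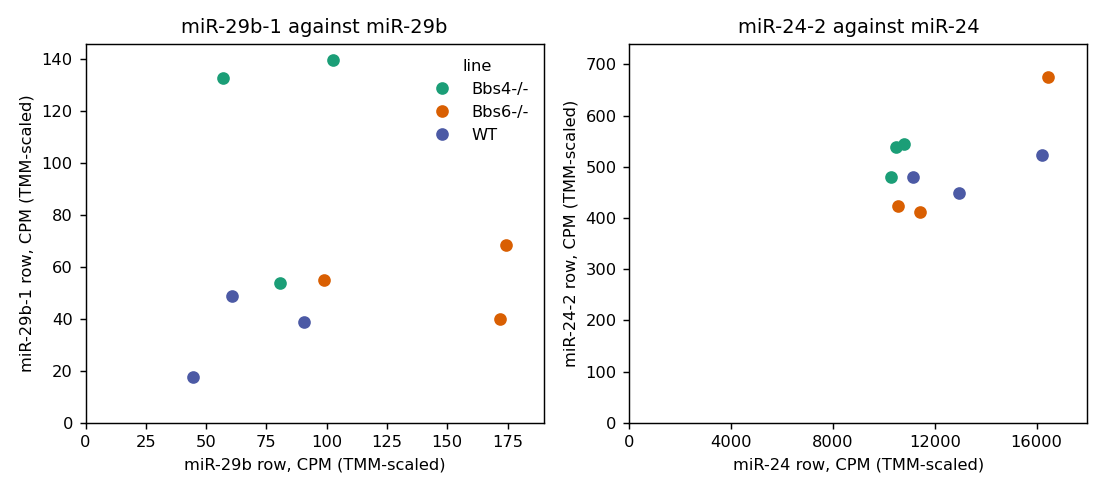
Level of the numbered entry (y axis) against that of the base entry (x axis) in TMM-scaled CPM, for miR-29b on the left and miR-24 on the right, with 1 point per library coloured by line. Bbs4-/- replicates 1 and 3 stand above the other libraries for miR-29b-1, and in the miR-24 panel Bbs6-/- replicate 2 has the highest level of both strands.

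For let-7a-1, miR-196a-1 and miR-30c-2 no difference among the lines was found in the ratio to the base strand (p = 0.307, 0.921 and 0.389, exact permutation test over all partitions). The let-7a-1 share spanned 0.270% to 0.340% over the Bbs4-/- libraries, 0.391% to 0.686% over the Bbs6-/- ones and 0.211% to 0.643% over the WT ones, the last spanning the range of Bbs4-/-. All Bbs6-/- shares of let-7a-1 were above all Bbs4-/- ones. Leaving out single libraries gave p from 0.0607 without WT replicate 4 to 0.514 without Bbs4-/- replicate 3 (exact permutation tests). In Bbs4-/-, Bbs6-/- and WT in turn, the share of miR-30c-2 was 1.58% to 2.99%, 2.26% to 3.91% and 2.84% to 3.00%. That of miR-196a-1 was 1.16% to 3.78%, 1.40% to 2.48% and 0.823% to 3.07%.

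The balance between loci could be tested for miR-24 and miR-30c, whose numbered entries both had at least 9 counts. The log2 ratio of miR-24-1 to miR-24-2 lay between -8.85 and -4.47 over the libraries, and that of miR-30c-1 to miR-30c-2 between -6.87 and -3.38. Neither differed among the lines (p = 0.621 and 0.996, exact permutation test over all partitions). The minor loci had 12 and 16 counts in all, with none in 6 and 4 libraries, so only a large shift between loci could have been seen.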

How the data were processed

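Small RNA from smEV pellets of 3 KM cell lines was sequenced in 9 libraries. The authors trimmed adapters with cutadapt 1.9, removed low-quality reads, collapsed reads by sequence with the random bases of the adapters as molecular identifiers, removed reads under 15 nt and counted reads per mouse miRNA with miRDeep2, keeping the largest value where a miRNA was listed more than once. What was deposited are raw counts. The submitters' processing notes name GRCm38, and the miRBase release of the counting step is not given in the sources used here. A base entry thus holds the largest of several entries, not their sum.

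Samples were grouped by genotype. In Bbs6-/- and WT the table and the labels number the replicates differently, and these columns were taken as replicates of their line only. Counts were tested in R 4.3.3 with edgeR 4.0.16 (TMM, quasi-likelihood), on the 6 libraries and entries with at least 6 counts for each mutant against WT, and on all 9 libraries and entries with at least 9 counts for the direct comparison. Ratios used a pseudocount of 0.5. Alternatives were DESeq2 1.42.0, its size factors in edgeR, total counts, no filter, other sets of libraries, an adjusted p under 0.05, identical entries merged, a block on the column number, pseudocounts of 0.1 and 1, a minimum of 90 counts, thinning to the smallest library (in 20 draws) and omission of single libraries. Both tests were tried on simulated data with known changes. Values by library are given for numbered entries with at least 90 counts, and would be for any with an adjusted p under 0.1 or a ratio p under 0.05, of which there were none. The entries, lists of partners and markers, and tests were chosen with earlier results of these data known. Binomial intervals are exact (Clopper-Pearson). Sequences, seeds and positions are from RefSeq for GRCm38.p6, and host genes from GENCODE vM21 of GRCm38. Figures were drawn with matplotlib 3.10.9.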

Additional observations from a re-analysis of the deposited data

Results flagged for a closer look

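The 2 mutants differed from each other in base entries with a numbered counterpart, by the direct comparison in edgeR. miR-181a had a log2 fold change of -0.96 between Bbs4-/- and Bbs6-/- (standard error 0.21, adjusted p = 0.0150, edgeR), and miR-30c one of 0.83 (standard error 0.21, adjusted p = 0.0350, edgeR). Neither reached the fold limit of the study. miR-181a kept its call when any library was left out, and miR-30c lost it without Bbs4-/- replicate 3 (or Bbs6-/- replicate 3). No numbered entry differed in this way, and groups of 3 libraries were not searched for outlying samples.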

How the results depend on the processing

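With the fold limit, the count of numbered entries called stayed at 0 in each comparison under every alternative run. At any fold it was 2 (let-7a-1 and let-7c-2, which hold the same counts) between Bbs6-/- and WT with a replicate block on the column number, where the log2 fold change was 1.42 (adjusted p = 0.0733, edgeR), and 2 (the same entries) between the mutants with only their 6 libraries in the fit, where it was -1.16 (adjusted p = 0.0982, edgeR). It was 0 in all other settings. Libraries of different lines with the same column number deviated from their line means with a correlation of -0.13 to 0.37 (median 0.11). It was over 0.1 in 3 of 6 such pairs. With different numbers the correlation was -0.29 to 0.15 (median -0.028), over 0.1 in 3 of 21 pairs. Whether the column numbers mark pairs cannot be told from so few pairs. Over all alternatives the adjusted p of let-7a-1 between Bbs6-/- and WT reached down to 0.0733, and that of miR-29b-1 between Bbs4-/- and WT to 0.103 (edgeR or DESeq2).

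Small log2 fold changes changed sign. let-7a-1 and let-7c-2 between Bbs4-/- and WT were at -0.17 with total counts and -0.31 with the replicate block. miR-24-2 between Bbs4-/- and WT was at 0.028 with DESeq2, 0.030 with its size factors, 0.073 without a filter, 0.10 with all libraries, 0.082 with identical entries merged and 0.12 with the block, and between Bbs6-/- and WT at -0.33 with total counts and -0.14 with the block. Between the mutants it was at -0.0013 with DESeq2's size factors, -0.060 without a filter, -0.091 with 6 libraries and -0.066 with identical entries merged. miR-30c-2 between Bbs4-/- and WT was at 0.034 without a filter, 0.062 with all libraries and 0.041 with identical entries merged. Leaving out each library, let-7a-1 between Bbs4-/- and WT ranged from -0.37 to 0.60, miR-24-2 from -0.035 to 0.14 (Bbs6-/- and WT -0.16 to 0.26, direct -0.21 to 0.25) and miR-30c-2 from -0.15 to 0.26. Without a change of sign, let-7a-1 between Bbs6-/- and WT ranged from 0.70 to 1.55, miR-29b-1 from 1.28 to 1.95 in Bbs4-/- and 0.28 to 0.97 in Bbs6-/- against WT, and miR-196a-1 between the mutants from 0.077 to 0.56.

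With at least 90 counts, 5 pairs lay below their base entry in every library, fewer because fewer were compared, and the median log2 ratio was -5.17. The number of pairs whose ratio differed among lines was 1 with thinned counts, as the median over draws of the number under 0.05, but no single pair had a median p under 0.05 over the draws, the lowest being 0.0911 for miR-29b-1. It was 0 to 1 when a library was left out: let-7f-1, which was at 0 in 5 libraries, without Bbs6-/- replicate 3 (p = 0.00714), miR-24-2 without WT replicate 3 (p = 0.00714) or Bbs6-/- replicate 4 (p = 0.0393), and miR-29b-1 without Bbs4-/- replicate 2 (p = 0.0179, exact permutation tests). No other setting changed a count of pairs or loci by over 1.5 times. The cause of these changes was not tested. Depth limits every statement on the 48 entries under 90 counts.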
